A study of Mus musculus with 6 samples.

Results

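Genes of the NODAL and activin branch of TGF-beta signalling were followed by RNA sequencing in mouse embryonic stem cells labelled BACH1-KO and WT. The genes were Nodal, Tdgf1, Lefty1, Lefty2, Acvr1b, Acvr2a, Acvr2b, Smad2, Smad3 and Smad4, taken by gene symbol from the deposited table, and 10 of 10 were found among its 18518 gene symbols. There were 3 BACH1-KO libraries and 3 WT libraries, all from E14Tg2A, an established mouse embryonic stem cell line. In the BACH1-KO cells Bach1 had been targeted with CRISPR/Cas9 from a transfected LentiCRISPR V2 plasmid, followed by puromycin selection and sorting of single-cell clones, and the labels do not say how many clones the libraries represent. Both genotypes grew for 2 days in medium with 10% fetal bovine serum and 200 units/ml of leukemia inhibitory factor (LIF), which keeps these cells undifferentiated. Values are FPKM, fragment counts scaled by transcript length and by library size, so that levels of different genes can be set side by side per length. No source used here says that the libraries came from separate cultures, so the p-values reflect only library-to-library spread, part or all of which may be technical. Bach1, the targeted gene, had 10.5, 10.4 and 10.4 FPKM in the BACH1-KO libraries, against 7.97, 8.39 and 8.47 FPKM in the WT libraries. Its transcript rose (log2 fold change 0.30, SE 0.05, limma adjusted p = 5.15e-04), which neither shows nor checks an edit of its coding sequence.

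NODAL is a secreted TGF-beta family ligand. It binds a complex of the type I receptor ALK4 (Acvr1b), the activin type II receptors (Acvr2a and Acvr2b) and the membrane-anchored co-receptor CRIPTO (Tdgf1). The receptors phosphorylate SMAD2 and SMAD3, which enter the nucleus with SMAD4 and act with FOXH1 on target genes. Nodal, Lefty1 and Lefty2 are themselves targets of the pathway, and the LEFTY proteins block it from outside the cell, which makes a feedback loop known from the mouse epiblast and from embryonic stem cells.

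Lefty1 and Lefty2 changed in opposite directions, as described with their values further on, and they are neighbours on mouse chromosome 1 with closely related sequences. In the mm10 annotation Lefty2 lies at chr1:180893108-180899103 and Lefty1 at chr1:180935022-180938400, both on the plus strand, with 35918 bases between them. Each has a coding sequence of 1104 bases in 4 exons, and the aligned sequences differ at 90 positions and are 91.8% identical, with 140 bases as the longest identical stretch. The differences gather near the start of the coding sequence. The 100 bases with the most differences, 30 in all, lie in exon 1 of both genes (chr1:180935148-180935247 in Lefty1, chr1:180893222-180893321 in Lefty2) and are shown because no other stretch of this length in the alignment differs more. Capitals mark the bases at which the paralogues differ.
Lefty1: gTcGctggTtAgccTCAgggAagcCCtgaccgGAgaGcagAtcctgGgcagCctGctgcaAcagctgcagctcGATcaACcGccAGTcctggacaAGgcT
Lefty2: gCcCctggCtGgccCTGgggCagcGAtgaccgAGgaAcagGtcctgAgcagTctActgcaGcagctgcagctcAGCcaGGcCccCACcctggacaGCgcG

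Of the 1571 sequences of 50 bases in the Lefty1 transcript, 281 (17.9%) also occur in Lefty2, and of the 2424 in the Lefty2 transcript 282 (11.6%) occur elsewhere, 281 in Lefty1 and 1 in Gm44212. How the authors' counting divided such fragments is not given in the sources used here, so the split between the paralogues is uncertain. The Lefty1 and Lefty2 transcripts used here are 1620 and 2473 bases long. A fragment counted for the other paralogue would therefore change the sum of their FPKM too.

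**Figure D1:**
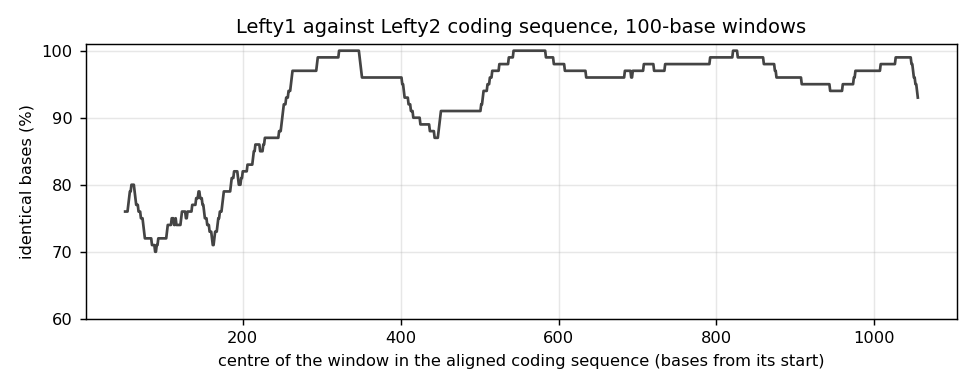
Percentage of identical bases between the Lefty1 and Lefty2 coding sequences (vertical axis) in windows of 100 bases along the alignment (horizontal axis, bases from the start of the coding sequence). Identity was as low as 70% near the start and reached 100% further on.

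Most expressed genes differed between these genotypes, and the members have to be read against that. All 10 members reached the mean of 1 FPKM set as the filter on low values. Log2(FPKM + 1) was compared between BACH1-KO and WT with limma over 12187 genes, and an adjusted p (Benjamini-Hochberg) under 0.05 is called past the threshold. Of the 10 members 7 passed, 2 higher and 5 lower in BACH1-KO. Of all tested genes 77% passed, 37.3% higher and 39.7% lower, so the share of members called was no larger than the background. The groups did not overlap for 8 of 10 members and for 79.3% of all tested genes. The median log2 fold change of the members was -0.13, against -0.01 over all tested genes. In size, 3 members (Tdgf1, Lefty1 and Lefty2) changed by at least 1 on the log2 scale, as did 11.9% of all tested genes. With 3 libraries per genotype an exact two-sided permutation test of a single gene cannot give p below 0.1, the value of each member whose groups did not overlap.

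**Figure D2:**
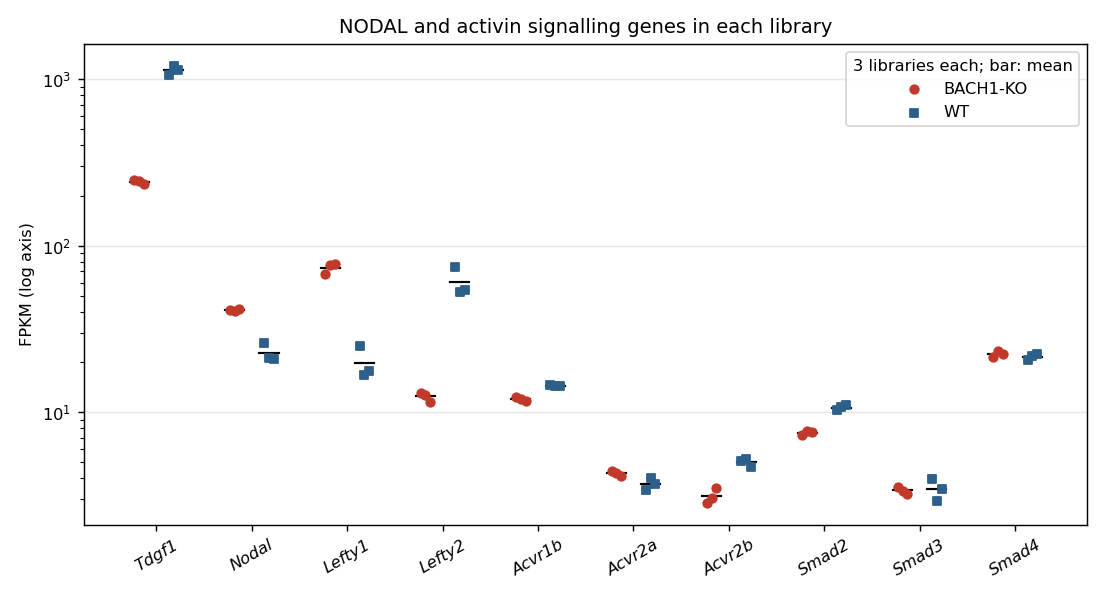
FPKM on a log axis for each of the 10 genes (horizontal axis) in the BACH1-KO libraries (circles) and the WT libraries (squares), with the mean as a bar. Tdgf1 and Lefty2 were lower in every BACH1-KO library and Nodal and Lefty1 higher in every one, while the points of Smad3 and Smad4 overlapped between genotypes.

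Nodal, the ligand, was higher in BACH1-KO cells (chr10:61417972-61425338). It stood at 41.0, 40.7 and 41.4 FPKM in the BACH1-KO libraries, against 25.8, 21.3 and 20.9 FPKM in the WT libraries. The BACH1-KO libraries lay within 1 FPKM of each other and above every WT library. Nodal rose with a log2 fold change of 0.83 (SE 0.07, limma adjusted p = 1.69e-05), a ratio of mean FPKM of 1.81.

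Tdgf1 encodes CRIPTO, a GPI-anchored protein without which NODAL signals poorly, and it was the most abundant member in both genotypes (chr9:110939603-110946158). Its level was 248, 243 and 235 FPKM in BACH1-KO cells, against 1059, 1203 and 1128 FPKM in WT cells. No library of one genotype came near those of the other. Tdgf1 fell with a log2 fold change of -2.22 (SE 0.05, limma adjusted p = 1.72e-08), and 0.222% of all tested genes had a lower fold change. By mean FPKM among the tested genes it ranked 393rd in BACH1-KO cells and 113th in WT cells. Because the ligand and co-receptor moved in opposite directions, Tdgf1 stood at 5.68 to 6.06 times the FPKM of Nodal in BACH1-KO libraries and at 41.0 to 56.5 times in WT libraries. A processed pseudogene, Tdgf1-ps1, shares 236 of the 1883 sequences of 50 bases (12.5%) of the Tdgf1 transcript.

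Lefty1 and Lefty2 moved in opposite directions (the plot of the paralogues and their sum). Lefty1 had 67.5, 76.6 and 77.1 FPKM in BACH1-KO cells, against 25.02, 16.7 and 17.7 FPKM in WT cells. It rose with a log2 fold change of 1.87 (SE 0.13, limma adjusted p = 5.07e-06), and by the ratio of means it was 3.73 times as high. Lefty2 had 13.1, 12.7 and 11.5 FPKM in BACH1-KO cells, against 74.0, 52.9 and 54.2 FPKM in WT cells. It fell with a log2 fold change of -2.18 (SE 0.12, limma adjusted p = 1.15e-06), and its mean in WT was 4.85 times that in BACH1-KO. Neither paralogue's groups overlapped.

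The order of the paralogues was reversed between genotypes while their summed level overlapped between genotypes. The FPKM of Lefty1 divided by that of Lefty2 was 5.16, 6.03 and 6.68 in BACH1-KO libraries, against 0.338, 0.316 and 0.326 in WT libraries. Lefty1 was the higher of the pair in each BACH1-KO library and the lower in each WT library. The sum of both was 80.6, 89.3 and 88.7 FPKM in BACH1-KO cells and 99.01, 69.6 and 71.8 FPKM in WT cells. The highest and the lowest sums were both from WT libraries. The overlap came from the first WT column (99.01 FPKM), since the remaining WT sums were below every BACH1-KO sum. Against Nodal the summed LEFTY transcript was 1.97, 2.19 and 2.14 times as high in BACH1-KO cells and 3.83, 3.27 and 3.43 times as high in WT cells, without overlap. The median log2 fold change of the 619 tested genes of chromosome 1 was 0.01.

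**Figure D3:**
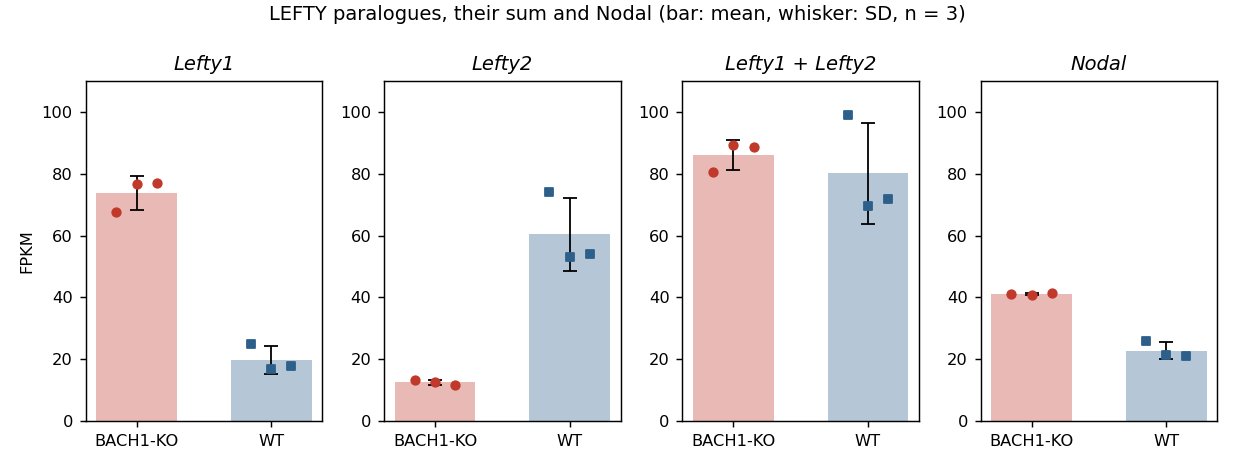
FPKM of Lefty1, Lefty2, their sum and Nodal in BACH1-KO (circles, left) and WT libraries (squares, right), with bars for the mean and whiskers for the SD of 3 libraries. Lefty1 averaged 73.7 FPKM in BACH1-KO and 19.8 FPKM in WT, Lefty2 12.4 FPKM in BACH1-KO and 60.4 FPKM in WT, and their sum 86.2 FPKM in BACH1-KO and 80.1 FPKM in WT.

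Receptor transcripts changed less than the ligand and its extracellular partners. Acvr1b, the type I receptor ALK4 that carries the signalling kinase activity toward SMAD2 and SMAD3 (chr15:101174067-101213684), had 12.3, 11.9 and 11.6 FPKM in BACH1-KO cells, against 14.6, 14.3 and 14.3 FPKM in WT cells. It fell slightly, with a log2 fold change of -0.25 (SE 0.04, limma adjusted p = 0.00100). Acvr2b, a type II receptor for NODAL and activins (chr9:119402118-119434995), had 2.85, 3.04 and 3.50 FPKM in BACH1-KO cells, against 5.07, 5.20 and 4.68 FPKM in WT cells. It fell with a log2 fold change of -0.54 (SE 0.08, limma adjusted p = 3.24e-04), and its groups did not overlap.

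Acvr2a, the other activin type II receptor (chr2:48814109-48903269), narrowly missed the threshold. It had 4.40, 4.31 and 4.15 FPKM in BACH1-KO cells, against 3.39, 4.01 and 3.68 FPKM in WT cells. Every BACH1-KO library was above every WT library, with a log2 fold change of 0.17 (SE 0.07, limma adjusted p = 0.0501) and a 95% interval for the fold of 1.01 to 1.26 on the log2(FPKM + 1) scale. It passed without the second WT column (adjusted p = 0.0277) and when the prior variance was held constant (adjusted p = 0.0289). Quantile normalization gave a log2 fold change of 0.044 (adjusted p = 0.584) and median-of-ratios scaling 0.14 (adjusted p = 0.104), so the size of the difference depended on the scaling. The exons of Acvr2a overlap those of Orc4 on the opposite strand over 446 bases (7.84%). Whether the counting used strand is not given in the sources used here, so reads there cannot be told apart. Orc4 stood at 23.1 ± 0.341 FPKM in BACH1-KO and 22.7 ± 1.14 FPKM in WT (SD, n = 3 each). The order of the type II receptors was reversed between genotypes, with Acvr2b at 0.647 to 0.842 times the FPKM of Acvr2a in BACH1-KO libraries and at 1.27 to 1.49 times in WT libraries.

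Among the SMADs, Smad2 fell and neither Smad3 nor Smad4 passed the threshold. Smad2, a receptor-activated SMAD, had 7.33, 7.67 and 7.59 FPKM in BACH1-KO cells, against 10.2, 10.7 and 11.01 FPKM in WT cells. It fell by 0.45 on the log2 scale (SE 0.05, limma adjusted p = 6.85e-05), and the groups did not overlap. Smad3, the other receptor-activated SMAD of this branch (chr9:63646767-63757994), had 3.55, 3.36 and 3.23 FPKM in BACH1-KO cells and 3.97, 2.91 and 3.43 FPKM in WT cells. The BACH1-KO values fell inside the WT range (log2 fold change -0.01, SE 0.09, limma adjusted p = 0.912), and the 95% interval allows a fold from 0.852 to 1.15 on the log2(FPKM + 1) scale. Smad4, the common partner SMAD shared with BMP signalling, had 21.4, 23.4 and 22.3 FPKM in BACH1-KO cells and 20.5, 21.6 and 22.3 FPKM in WT cells. Its groups overlapped (log2 fold change 0.06, SE 0.05, limma adjusted p = 0.317), with a 95% interval for the fold of 0.961 to 1.12. Smad2 was higher than Smad3 in all 6 libraries, by 2.06 to 2.35 times in BACH1-KO and 2.58 to 3.68 times in WT. The median log2 fold change of tested genes was -0.11 on chromosome 18, which carries Smad2 and Smad4, and -0.12 on chromosome 9, which carries Tdgf1, Acvr2b and Smad3.

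**Figure D4:**
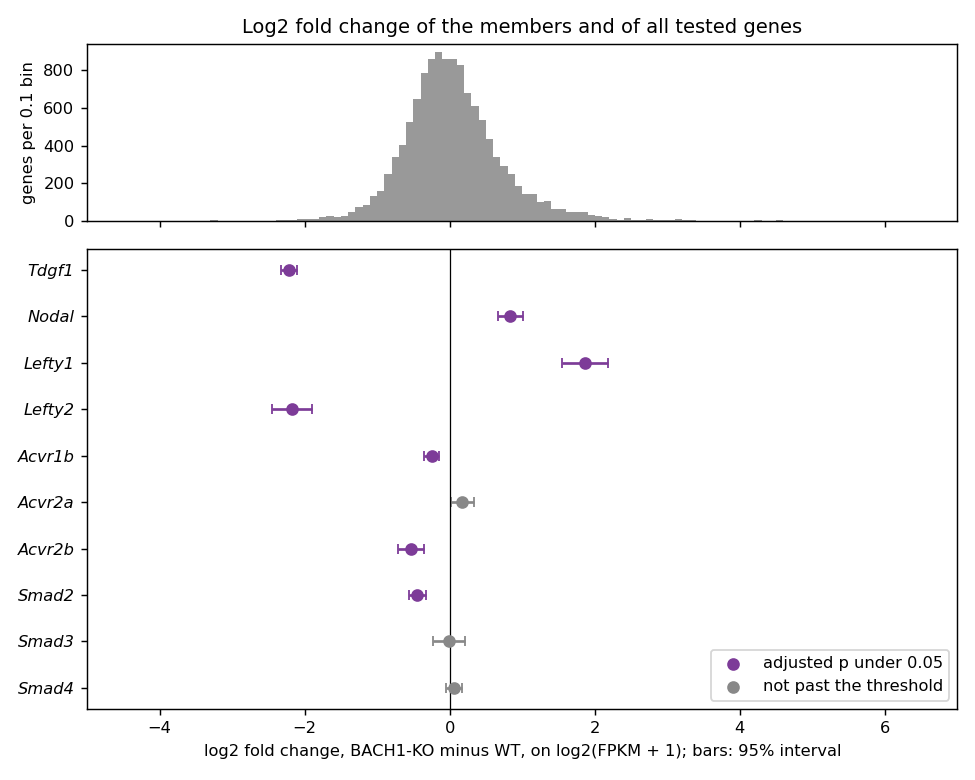
Log2 fold change (BACH1-KO minus WT, on log2(FPKM + 1)) with 95% intervals for the 10 genes, below a histogram of the same quantity over the 12187 tested genes. Tdgf1 (-2.22) and Lefty2 (-2.18) lie in the lower tail and Lefty1 (1.87) in the upper one, while the receptors and SMADs lie within the bulk of genes.

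By level, the order of the members differed between the genotypes mainly through Lefty1 and Lefty2. In BACH1-KO cells it ran from Tdgf1 (242 ± 6.82 FPKM) through Lefty1 (73.7 ± 5.38), Nodal (41.0 ± 0.341), Smad4 (22.4 ± 0.991), Lefty2 (12.4 ± 0.80), Acvr1b (11.9 ± 0.369), Smad2 (7.53 ± 0.178), Acvr2a (4.29 ± 0.124) and Smad3 (3.38 ± 0.163) to Acvr2b (3.13 ± 0.335 FPKM; SD, n = 3). In WT cells it ran from Tdgf1 (1129.7 ± 72.0 FPKM) through Lefty2 (60.4 ± 11.8), Nodal (22.7 ± 2.74), Smad4 (21.5 ± 0.884), Lefty1 (19.8 ± 4.55), Acvr1b (14.4 ± 0.190), Smad2 (10.7 ± 0.395), Acvr2b (4.98 ± 0.271) and Acvr2a (3.70 ± 0.311) to Smad3 (3.44 ± 0.529 FPKM; SD, n = 3). Neighbours whose libraries overlapped were Lefty2 with Acvr1b and Smad3 with Acvr2b in BACH1-KO, and Nodal with Smad4, Smad4 with Lefty1 and Acvr2a with Smad3 in WT.

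Tdgf1 and Nodal, the co-receptor and ligand that moved in opposite directions, are shown with the 250 bases before and 50 bases after their start sites, from RefSeq (GRCm38.p6). The Tdgf1 window is chr9:110946109-110946408 on the minus strand and the Nodal window chr10:61417722-61418021 on the plus strand. Capitals mark the 1 motif match described next, which is in Nodal.
Tdgf1: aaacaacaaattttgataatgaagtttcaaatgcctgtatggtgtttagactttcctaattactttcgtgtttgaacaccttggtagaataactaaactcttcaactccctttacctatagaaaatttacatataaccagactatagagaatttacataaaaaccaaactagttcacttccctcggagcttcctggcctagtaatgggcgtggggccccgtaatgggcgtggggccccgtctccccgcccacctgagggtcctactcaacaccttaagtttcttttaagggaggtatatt
Nodal: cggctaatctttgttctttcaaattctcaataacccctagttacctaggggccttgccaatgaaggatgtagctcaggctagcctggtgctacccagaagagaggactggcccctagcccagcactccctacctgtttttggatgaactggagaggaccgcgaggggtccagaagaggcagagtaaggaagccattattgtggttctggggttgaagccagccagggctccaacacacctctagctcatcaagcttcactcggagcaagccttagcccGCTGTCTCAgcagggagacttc

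Windows for 6 of the members (Tdgf1, Nodal, Acvr1b, Acvr2a, Acvr2b and Smad3) were in the table used, and both strands were searched. The only match in the Tdgf1 and Nodal windows was TGANNNNGC, a core shared by BACH1 and NRF2 sites, on the strand opposite to Nodal from base 29 after its start, and 41.3% of all 32851 windows hold this motif. The FOXH1 motif AATNCACA (in 3.6% of windows), the palindromic SMAD motif GTCTAGAC (0.213%), the STAT motif TTCNNNGAA (8.30%) and the TATA box TATAAA (13.6%) had no match in the 6 windows. The GC-rich SMAD motif GGCGC, present in 36.9% of windows, had 8 matches in Acvr1b, 3 in Acvr2b and 2 in Acvr2a. These are matches of letters, not binding sites.

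Other ligands of the branch and the enzymes that process them moved both ways. Of 14 genes on that list 7 were expressed enough to be tested, and 2 rose, 4 fell and 1 did not pass, with a median log2 fold change of -0.24. Over all tested genes 77% passed, and the calls on this and the following lists are read against that share. Inhbb, the activin beta B subunit, fell to 1.56 ± 0.0809 FPKM in BACH1-KO, against 12.0 ± 0.803 FPKM in WT (SD, n = 3 each), a log2 fold change of -2.34 (limma adjusted p = 5.81e-08). Pcsk6, the convertase PACE4 that cleaves the NODAL precursor, fell to 5.40 ± 0.275 FPKM in BACH1-KO, against 10.7 ± 0.661 FPKM in WT (log2 fold change -0.88, limma adjusted p = 4.94e-06). Furin, another such convertase, fell to 3.04 ± 0.0831 FPKM in BACH1-KO, against 4.13 ± 0.330 FPKM in WT (log2 fold change -0.34). Gdf3, a ligand that can also use CRIPTO, rose to 41.3 ± 1.49 FPKM in BACH1-KO, against 31.8 ± 0.691 FPKM in WT. Its log2 fold change of 0.37 stands beside a median of 0.31 over the tested genes of chromosome 6, where it lies. Gdf1, which can pair with NODAL and shares its locus with Cers1, averaged 4.26 ± 0.216 FPKM in BACH1-KO and 5.24 ± 0.770 FPKM in WT, with overlapping libraries. Its fall (log2 fold change -0.24, limma adjusted p = 0.0490) was lost in 9 of its 12 alternatives, and its adjusted p ran from 0.00460 to 0.159 when 1 library was left out.

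Inhbe, an activin subunit gene made mainly in the liver, rose to 2.92 ± 0.322 FPKM in BACH1-KO, against 0.100 ± 0.0345 FPKM in WT (log2 fold change 1.83, limma adjusted p = 6.24e-07). Inhbc, also a liver gene, was under the filter, with 1.09 ± 0.153 FPKM in BACH1-KO and 0.234 ± 0.0863 FPKM in WT. Hepatocyte markers were also higher in BACH1-KO: of 10 such genes 9 were tested and 9 rose, beside 37.3% of all tested genes. Each of the 9, like Inhbe, averaged under 1 FPKM in WT. They passed the filter only through their BACH1-KO values, so the filter set their direction. The summed level of the 10 genes was 693 to 718 FPKM in BACH1-KO libraries and 0.815 to 4.91 FPKM in WT libraries. Their share of all FPKM was 0.0904% to 0.0941% in BACH1-KO and at most 6.12e-04% in WT, and Afp, the fetal member of the list, was listed at 0 in every BACH1-KO library. The part of these transcripts in the results was not tested. Inhba, the activin beta A subunit, was listed at 0 in all WT libraries and averaged 0.0351 FPKM in BACH1-KO, and Cfc1, the CRIPTO relative CRYPTIC, averaged 0.561 ± 0.181 FPKM in BACH1-KO and 0.161 ± 0.210 FPKM in WT. Low values differed between the genotypes in general: the median of 5182 genes that averaged under 0.5 FPKM was 0.0978 to 0.0990 FPKM in BACH1-KO libraries and 0.0217 to 0.0253 FPKM in WT libraries. The BACH1-KO libraries had 17276 to 17455 genes above 0 and the WT libraries 16047 to 16159. The part of this difference in the values of Inhba, Inhbc, Cfc1, Fst and Acvr1c was not tested.

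Of the extracellular antagonists 6 of 8 were tested, and 2 rose and 4 fell, beside 77% of all tested genes called. Dand5, a secreted inhibitor of NODAL of the Cerberus family, rose to 5.83 ± 0.384 FPKM in BACH1-KO, against 2.38 ± 0.0925 FPKM in WT (log2 fold change 1.01, limma adjusted p = 3.18e-06). Fstl3, which binds activins, fell to 2.76 ± 0.247 FPKM in BACH1-KO, against 5.45 ± 0.783 FPKM in WT (log2 fold change -0.77). Bambi, a pseudoreceptor that dampens TGF-beta signals, fell to 2.19 ± 0.102 FPKM in BACH1-KO, against 3.88 ± 0.343 FPKM in WT. Nomo1, a membrane protein that restrains NODAL in zebrafish, fell to 24.8 ± 0.833 FPKM in BACH1-KO, against 30.6 ± 0.665 FPKM in WT. Fst, the activin-binding follistatin, was under the filter with 0.725 ± 0.0257 FPKM in BACH1-KO and 0.394 ± 0.128 FPKM in WT, and Cer1 was not analysed here.

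Of 11 other receptors of the superfamily 7 were tested, and 3 fell, 0 rose and 4 did not pass, beside 77% of all tested genes called. The receptors that fell were Acvrl1 (log2 fold change -0.80), an ALK1 receptor typical of endothelium, and the BMP receptors Bmpr1a (-0.60) and Bmpr2 (-0.63). Acvrl1 averaged 0.579 FPKM in BACH1-KO and 1.74 FPKM in WT. It passed the filter only through its WT values, so the filter set its direction. Bmpr1a stood at 13.0 ± 0.161 FPKM in BACH1-KO and 20.2 ± 0.588 FPKM in WT. Acvr1c, the NODAL receptor ALK7, was listed at 0 in all WT libraries and averaged 0.0241 FPKM in BACH1-KO. Tgfbr1, the TGF-beta type I receptor, averaged 9.71 ± 0.453 FPKM in BACH1-KO and 9.39 ± 0.388 FPKM in WT and did not pass (limma adjusted p = 0.501).

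Of 22 SMAD partners and regulators 21 were tested, and 3 rose, 13 fell and 5 did not pass, beside 37.3% of all tested genes higher and 39.7% lower. Foxh1, the DNA-binding partner of SMAD2 and SMAD3 in NODAL responses, rose to 38.6 ± 2.02 FPKM in BACH1-KO, against 30.5 ± 1.42 FPKM in WT (log2 fold change 0.33, limma adjusted p = 4.87e-04). Smad7, an inhibitory SMAD that acts on the receptors, fell to 2.36 ± 0.114 FPKM in BACH1-KO, against 8.66 ± 1.96 FPKM in WT (log2 fold change -1.50, limma adjusted p = 1.37e-05). Smurf2, a ubiquitin ligase that works with SMAD7, fell to 10.7 ± 0.615 FPKM in BACH1-KO, against 20.4 ± 0.380 FPKM in WT (log2 fold change -0.88). Ppm1a, a phosphatase of SMAD2 and SMAD3, and Trim33, a SMAD4 regulator, fell with log2 fold changes of -0.50 and -0.41. Skil, the SnoN corepressor, fell by 0.22 on the log2 scale.

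Known SMAD2/3 target genes divided into both directions, and several are also controlled by other signals. Of 17 on the list 10 were tested, and 4 rose and 6 fell, with a median log2 fold change of -0.29, beside 77% of all tested genes called. Otx2, a transcription factor of the formative epiblast, rose to 22.8 ± 1.96 FPKM in BACH1-KO, against 2.19 ± 0.599 FPKM in WT (log2 fold change 2.92, limma adjusted p = 3.99e-07). Ctgf, also a target of YAP, rose to 8.68 ± 0.241 FPKM in BACH1-KO, against 3.73 ± 0.678 FPKM in WT (log2 fold change 1.04). Id1, best known as a BMP target, fell to 8.33 ± 1.59 FPKM in BACH1-KO, against 156.9 ± 4.16 FPKM in WT (log2 fold change -4.09, limma adjusted p = 3.08e-08). Smad7 and Skil are on this list too. Ldlrad4, also among those that fell, averaged 0.687 FPKM in BACH1-KO and 1.63 FPKM in WT. It passed the filter only through its WT values, so the filter set its direction. Of the 5 lists together, 39 of 49 tested genes (79.6%) passed, 11 higher and 28 lower, each gene counted once, with a median log2 fold change of -0.21. The share called was near the 77% of all tested genes, of which 37.3% were higher and 39.7% lower.

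**Figure D5:**
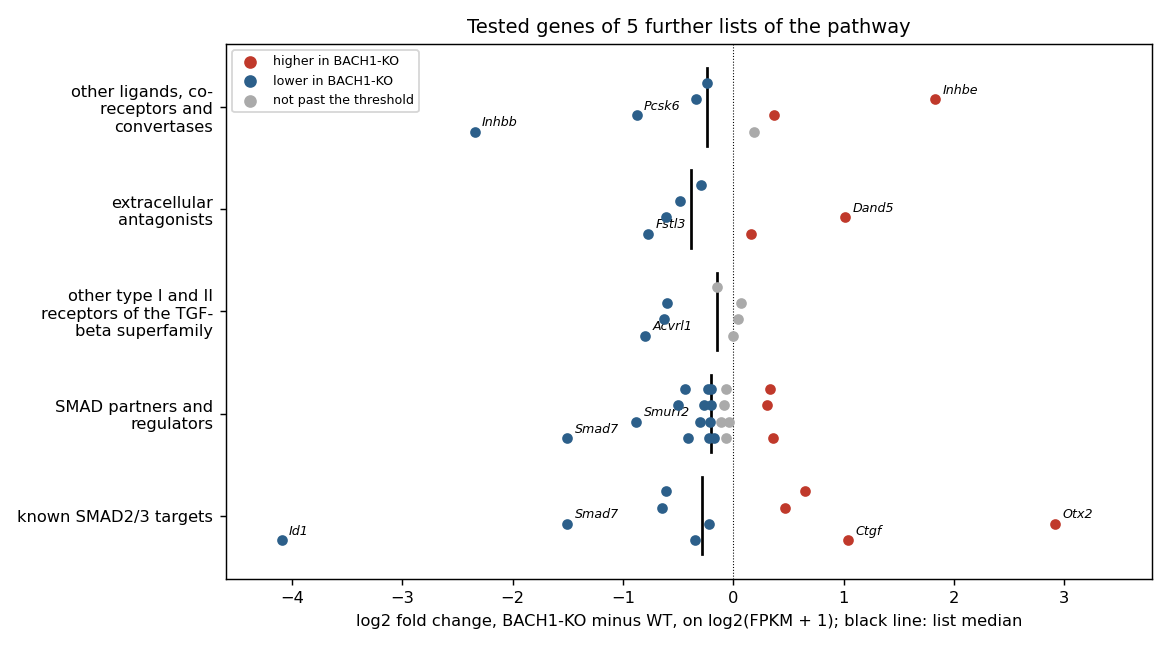
Log2 fold change (BACH1-KO minus WT, on log2(FPKM + 1)) of each tested gene in 5 further lists of the pathway, coloured by the limma call, with the list median as a black line and genes beyond 0.75 in size named. The furthest points are Id1 (-4.09), Inhbb (-2.34) and Smad7 (-1.50) below 0 and Otx2 (2.92), Inhbe (1.83), Ctgf (1.04) and Dand5 (1.01) above it.

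The 9 embryonic stem cell markers, Tdgf1 among them, summed to 6748 to 6997 FPKM in BACH1-KO and 10513 to 11286 FPKM in WT. By the limma call 2 were higher and 7 lower in BACH1-KO, beside 37.3% of all tested genes higher and 39.7% lower. Those that rose were Nanog (mean 313 FPKM in BACH1-KO, 298 FPKM in WT) and Sall4 (14.6 FPKM in BACH1-KO, 11.03 FPKM in WT). Among those that fell, Dppa5a averaged 4284 FPKM in BACH1-KO and 6606 FPKM in WT. Pou5f1, which encodes OCT4, also fell and stood at 1102.5 to 1124 FPKM in BACH1-KO and 1310 to 1431 FPKM in WT. Fibroblast feeder markers summed to 12.7 to 13.4 FPKM in BACH1-KO and 22.8 to 24.1 FPKM in WT. Thy1 made up most of that sum (10.2 FPKM in BACH1-KO, 18.8 FPKM in WT). The mean of 5 of the 8 genes was higher in BACH1-KO, among them Dcn (0.764 FPKM in BACH1-KO, 0.0664 FPKM in WT) and Col3a1 and Lum, both listed at 0 in all WT libraries. All 5 averaged under 0.5 FPKM. The median of such genes was 0.0978 to 0.0990 FPKM in BACH1-KO libraries and 0.0217 to 0.0253 FPKM in WT libraries. The part of that general difference in these 5 genes was not tested. Primitive endoderm markers summed to 4.17 to 4.79 FPKM in BACH1-KO and 4.92 to 6.12 FPKM in WT. Of these, 2 of 7 passed the filter. Gata4 averaged 1.71 FPKM in BACH1-KO and 1.38 FPKM in WT, and Dab2 1.02 FPKM in BACH1-KO and 1.62 FPKM in WT. Mesendoderm markers summed to 5.08 to 5.78 FPKM in BACH1-KO and 5.50 to 6.19 FPKM in WT. Only Eomes among them passed the filter (2.24 FPKM in BACH1-KO, 3.15 FPKM in WT). Neuroectoderm markers summed to 73.5 to 75.01 FPKM in BACH1-KO and 34.1 to 36.0 FPKM in WT. The part of any of these cell types in the members' values was not tested. In bulk RNA fewer cells of a type and less RNA per cell cannot be told apart. Absolute depth is unknown, since no read counts were used.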

How the data were processed

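RNA from 3 BACH1-KO and 3 WT samples was sequenced after Trizol extraction and an Illumina TruSeq library kit, per the labels' protocols. The authors deposited FPKM values per gene symbol, and Cufflinks and mm10 are named in the submitters' processing notes. No source used here gives the aligner, annotation or versions. Columns name the genotype and match no title, so they were replicates without number or pairing. The 23 rows without a symbol (at most 0.106% of the FPKM in a library) were left out.

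Log2(FPKM + 1) of the 12187 genes that averaged 1 FPKM or more over the 6 libraries was fitted with limma 3.58.1 in R 4.3.3 (eBayes with trend), BACH1-KO minus WT, two-sided, with Benjamini-Hochberg adjustment over all tested genes; this understates the change of low genes. The method was tested on simulated data. Low values stepped by whole fragments, which gave relative depths of 1.01 to 1.18 in BACH1-KO and 1.00 to 1.10 in WT, with the first WT column as the unit. Gene positions and transcripts are from GENCODE M21 (mm10), and promoters from RefSeq. The LEFTY coding sequences were aligned globally with Biopython 1.88, in place of a planned comparison of their proteins, for which no protein table was used.

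Members and lists were chosen with earlier results of these data known. Named are the members, Bach1, 15 fixed genes and up to 4 genes per list with the smallest adjusted p. Inhbc, Tgfbr1, Orc4, Pou5f1, Dppa5a, Nanog, Sall4, Ldlrad4, Gata4, Dab2, Eomes, Afp, Thy1, Dcn, Col3a1 and Lum were named after their values were seen. 1 of the fixed genes and a stretch of sequence are not reported here. Ccn2 was read under its older symbol Ctgf. Alternatives were another pseudocount, other filters and scalings, a constant prior variance, a test against a fold change of 1.5 and leaving out each column.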

Additional observations from a re-analysis of the deposited data

How the results depend on the processing

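Tdgf1, Nodal, Lefty1 and Lefty2 kept their direction and stayed past the threshold under all 13 alternatives, with log2 fold changes of -2.26 to -2.02, 0.78 to 0.93, 1.76 to 2.04 and -2.26 to -2.02. Tested against a fold change of 1.5, 2319 of all genes, 4 members and 9 genes of the 5 lists passed, and Acvr1b (-0.25), Acvr2b (-0.54) and Smad2 (-0.45) did not, since that test asks for a larger change. With a filter at 5 FPKM 25 list genes passed, among fewer genes tested. Acvr2a passed with a constant prior variance (log2 fold change 0.17) and without the second WT column (0.22), and ran from 0.13 to 0.22 without 1 library. Quantile normalization gave its lowest value (0.044, adjusted p = 0.584). Smad3 changed sign without the third BACH1-KO column (0.013) and without the first WT column (0.073), and ran from -0.10 to 0.07 without 1 library, with -0.16 under quantile normalization (adjusted p = 0.127). It was not past the threshold in any of them. The cause of these changes was not tested. Leaving out 1 library gave 8798 to 9344 genes, 7 to 8 members and 36 to 38 list genes past the threshold. No paired analysis was possible because the columns carry no numbers that match the labels. The number of libraries, 3 per genotype, and the unknown depth limit the precision. The standard errors of the members were largest for Lefty1 (0.13) and Lefty2 (0.12).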

Other observations

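The first WT column had the highest level of the WT libraries for Nodal, Lefty1, Lefty2 and Smad7. Smad7 had 10.9, 7.86 and 7.22 FPKM in the WT columns, and Lefty2 74.0, 52.9 and 54.2 FPKM. That column was the highest of the WT libraries for 7 of 10 tested SMAD2/3 targets and for 5 of 10 members, against 38.2% of all tested genes. This was noticed after the values were seen, and its cause was not tested. Without it the log2 fold change (BACH1-KO minus WT) was 0.93 for Nodal, 2.04 for Lefty1, -2.02 for Lefty2 and -1.35 for Smad7.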
